A study of Mus musculus domesticus with 18 samples.

Results

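The transporters described here are the liver genes Slco2a1, Slco1a1, Slco1a4, Slco1b2, Slco2b1 and Slco3a1 of the organic anion transporting polypeptide (OATP) family. The livers came from 18 male Mus musculus domesticus caught in the wild, 9 around La Paz, Bolivia, at 3600 m and 9 around Lima, Peru, at 100 m. Each altitude was represented by 3 trapping locations with 3 mice each, called A, B and C within that altitude, so high A and low A are unrelated places. No treatment was given and no genotype is stated. The labels give the strain as C57BL/6J, which is at odds with wild trapping and was not used. Altitude, city and mouse population coincide and cannot be told apart. Liver RNA was hybridised to 1 Affymetrix array per mouse. A probe set is a group of short oligonucleotides against 1 stretch of a transcript, and its level is a log2 value, so a difference of 1 is a doubling. The members were all probe sets annotated to exactly 1 of the 6 symbols, 18 of the 45101 on the array (6 of the 18193 genes with such a probe set): 4 for Slco2a1, 2 for Slco1a1, 1 for Slco1a4, 5 for Slco1b2, 3 for Slco2b1 and 3 for Slco3a1. The 6 genes were chosen from measured values of the comparison of altitudes, so their altitude differences are given as a description with a standard error and no p.

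OATP carriers move large amphipathic organic anions into cells without sodium: bile acids, steroid and thyroid hormone conjugates, prostanoids and many drugs. Slco1b2 is the main OATP of the hepatocyte membrane that faces the blood, together with Slco1a1, which in mouse liver is known to be higher in males, and Slco1a4, known to be higher in females. Slco2a1 is the prostaglandin transporter: it takes prostaglandins up from outside the cell, after which the enzyme Hpgd oxidises them. Slco2b1 and Slco3a1 are found in many tissues. In the RefSeq gene table Slco1c1, Slco1b2, Gm5724, Slco1a4, Slco1a1, Gm6614, Slco1a6 and Slco1a5 follow each other on 1 chromosome, so 3 of the 6 members belong to 1 gene cluster.

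The arrays had similar distributions, with array medians of 5.25 to 5.35 at high and 5.24 to 5.36 at low altitude, and each array's mean correlation with the others lay between 0.982 and 0.987. The difference between 3′ and 5′ Actb probe sets, a sign of RNA quality, was 1.40 ± 0.32 (SD, n = 9) at high and 1.21 ± 0.17 (SD, n = 9) at low altitude. Levels of 1 probe set can be compared across mice, but levels of different probe sets cannot be set against each other. Of the 18 member probe sets, 14 lay at or above the median probe set and 4 below it, where the normalization compresses differences. In whole liver, fewer cells of a type and less RNA per cell cannot be told apart.

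Slco2a1 had higher levels at high altitude, and the size of the difference depended on the probe set. For the brightest, 1420913_at, the 9 high mice ranged from 7.72 to 9.17 with a median of 8.50, and the 9 low mice from 6.80 to 7.47 with a median of 7.07. Every high mouse lay above every low mouse; the gap between the groups fell between high C2 at 7.72 and low B1 at 7.47. The means were 8.46 ± 0.44 and 7.13 ± 0.24 (SD, n = 9 each), a difference of 1.33 ± 0.16 (SE), or 2.51-fold. Complete separation of the mice in this way occurred in 0.0822% of the 45037 probe sets tested, and in 1 of the 18 members.

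The second probe set, 1450032_at, ranged from 5.45 to 6.66 with a median of 5.95 at high and from 4.77 to 5.45 with a median of 5.17 at low altitude. Of the 9 high mice, 8 lay above all low mice; high B3, the lowest, fell within the low range. The difference was 0.87 ± 0.14 (SE), or 1.83-fold. The remaining pair of probe sets differed far less. For 1420914_at, which is below the median probe set, the high mice ranged from 4.57 to 5.47 with a median of 4.77 and the low mice from 4.37 to 4.83 with a median of 4.66. For 1444242_at the high range was 6.00 to 6.46 with a median of 6.24 and the low range 5.84 to 6.37 with a median of 6.04. Both groups overlapped broadly in each: 4 of 9 high mice lay above all low mice for 1420914_at and 1 of 9 for 1444242_at. Their differences were 0.19 ± 0.10 and 0.16 ± 0.08 (SE). By the platform annotation, 1444242_at was designed from an expressed sequence tag, and the other probe sets of Slco2a1 point to the same RefSeq transcript. The mean of all 4 probe sets differed by 0.64.

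**Figure D1:**
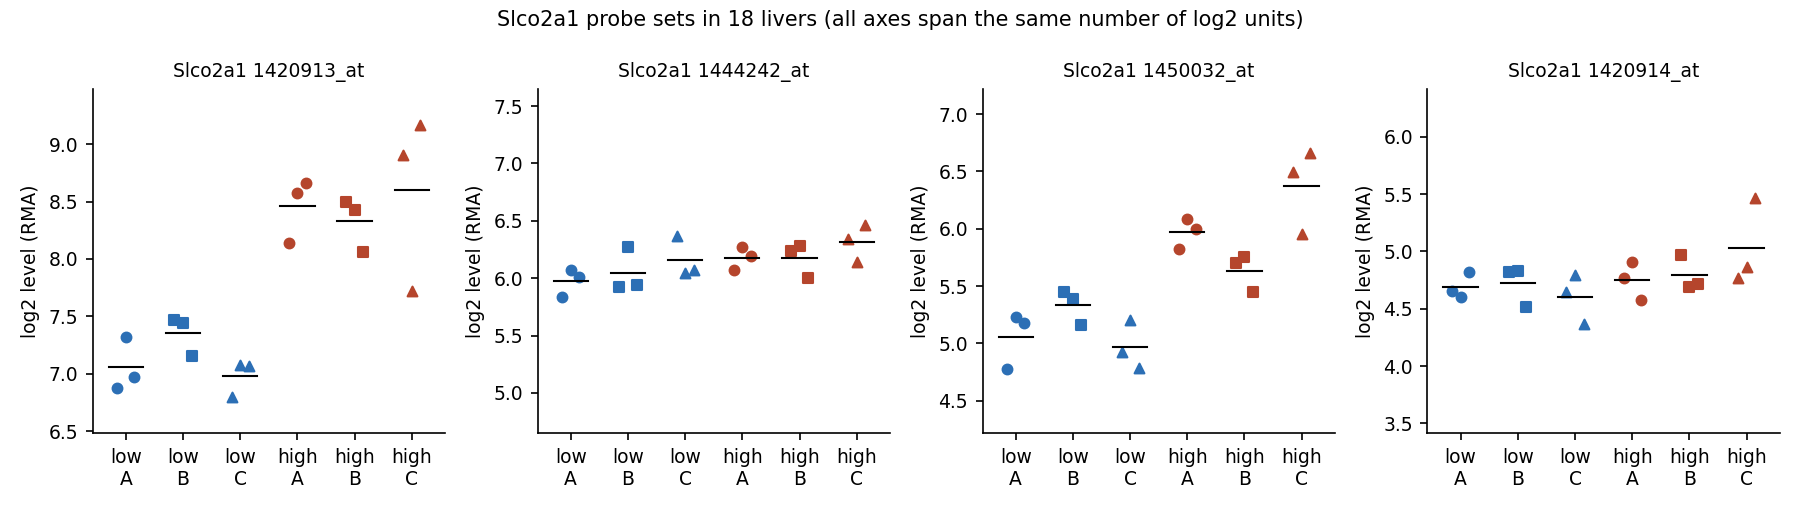
Log2 level (RMA) of each Slco2a1 probe set in each of 18 livers, by trapping location; points are mice, lines are the means of 3 mice, and all 4 axes span the same number of log2 units. For 1420913_at the high mice sit between 7.72 and 9.17, all above the low mice, whereas the groups overlap for 1444242_at and 1420914_at.

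The higher level of Slco2a1 was present at each location. For 1420913_at the high location means were 8.46 ± 0.28 at A, 8.33 ± 0.24 at B and 8.60 ± 0.77 at C (SD, n = 3 each). The low means were 7.06 ± 0.23 at A, 7.36 ± 0.18 at B and 6.98 ± 0.16 at C (SD, n = 3 each). High C was the most spread location, holding both the highest mouse, C3 at 9.17, and the lowest, C2 at 7.72. For all 4 Slco2a1 probe sets the 3 high location means lay above the 3 low ones. Location means were apart in this way, in either direction, for 6 of the 18 member probe sets, the other two belonging to Slco1b2, and for 13.6% of all probe sets. Fitted on 1 mean per location, 3 against 3, the comparison called 0 of 45037 probe sets in limma, Slco2a1 included, although 3634 had an unadjusted p below 0.05.

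Differences of Slco2a1 among locations of 1 altitude were not used to choose the members and could be tested. For 1450032_at the high means were 5.97 ± 0.13 at A, 5.63 ± 0.17 at B and 6.37 ± 0.37 at C (SD, n = 3 each). Location C exceeded B by 0.73 ± 0.18 (SE); limma's F test over the 3 locations gave an adjusted p of 0.211 over all probe sets, short of the threshold of 0.05. For 1420913_at the same test gave an adjusted p of 0.970 at high and 0.948 at low altitude. In the low mice 1450032_at spanned 4.97 at C to 5.33 at B, with an adjusted p of 0.875. The location order at low altitude, B highest and C lowest, was the same for both probe sets, and at high altitude it was C, A, B for both, but none of these orders was separated by the test.

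Whether the Slco2a1 probe sets vary together was asked within each altitude, where the altitude difference plays no part, with exact two-sided permutation tests over 12 pair-by-altitude combinations. The pair with the large altitude differences, 1420913_at and 1450032_at, passed among the low mice by Pearson's r, and not among the high mice. Among the low mice r was 0.806 (exact permutation p = 0.0107, adjusted p = 0.0428) and Spearman's rho 0.85 (exact permutation p = 0.00607, adjusted p = 0.0729). Leaving out low B1 and low B2, the mice farthest from the median, left r = 0.596. Among the high mice r was 0.744 (exact permutation p = 0.0215, adjusted p = 0.0644) and rho 0.75 (exact permutation p = 0.0255, adjusted p = 0.102), and r was 0.868 without high C2 and high C3. With every location's mean removed, r over the 18 mice was 0.841, and permuting mice only within locations gave an exact adjusted p of 0.00836 over 6 pairs. Within locations, mice with more 1420913_at signal tended to have more 1450032_at signal.

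The probe set 1444242_at, whose altitude difference was small, passed among the high mice by Pearson's r with 1420913_at and 1450032_at, and not with 1420914_at (r = 0.639, exact permutation adjusted p = 0.132; r = 0.068 without high B3 and high C3). Its r with 1420913_at was 0.845 there (exact permutation p = 0.00505, adjusted p = 0.0371; rho 0.80, exact permutation p = 0.0138, adjusted p = 0.0830), and 0.884 without high C2 and high C3. Among the low mice the same r was -0.065 (exact permutation p = 0.869, adjusted p = 0.909). With 1450032_at it was 0.829 in the high mice (exact permutation p = 0.00618, adjusted p = 0.0371; rho 0.683, exact permutation p = 0.0503, adjusted p = 0.151), which fell to 0.508 without high B3 and high C3, and 0.046 in the low mice (exact permutation p = 0.909). The difference between altitudes in these correlations was not tested. Within locations over all 18 mice the adjusted exact p was 0.0732 for both pairs, so neither passed, with r of 0.542 and 0.586. The dim probe set 1420914_at passed with no other: its r was positive in all 6 combinations but the lowest adjusted exact p was 0.127. In all, 3 of the 12 combinations passed by Pearson's r, and 0 by Spearman's rho.

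**Figure D2:**
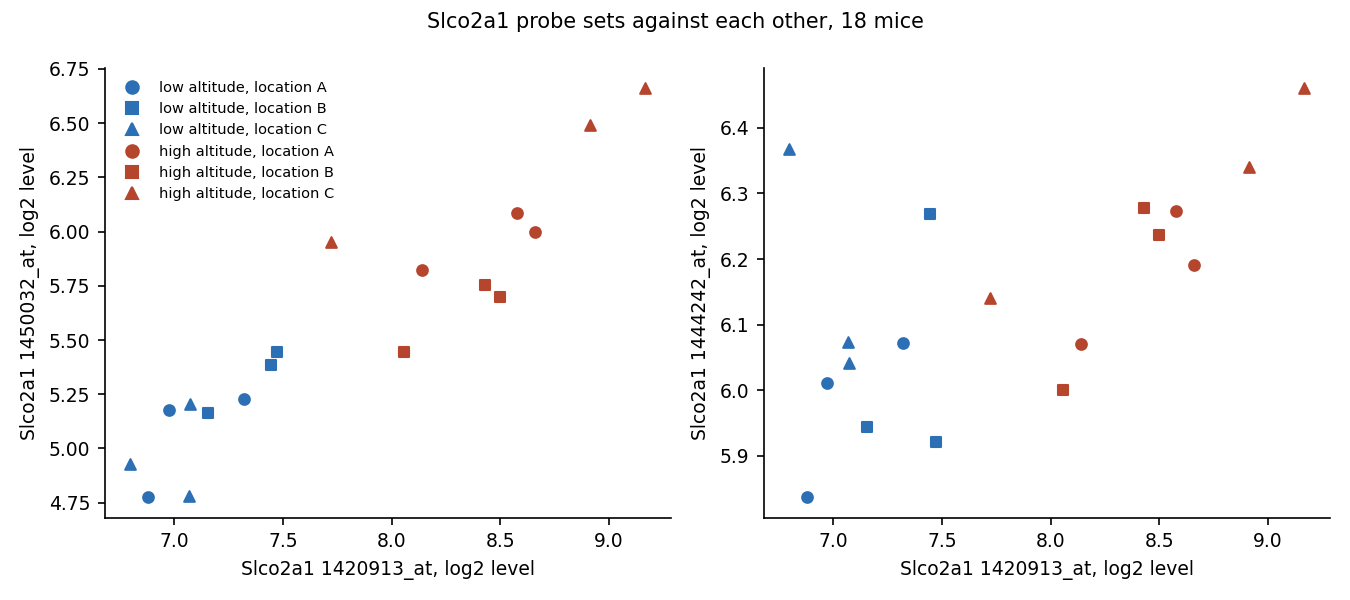
Log2 level of Slco2a1 1420913_at (horizontal axis) against 1450032_at (left panel) and 1444242_at (right panel) in 18 livers; colour gives altitude, shape gives location, and each point is a mouse. In the left panel both groups slope upwards (r = 0.744 at high, 0.806 at low altitude), in the right panel the high group does (r = 0.845) and the low group does not (r = -0.065).

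Among the hepatocyte carriers, Slco1b2 had lower means at high altitude for its best separated probe set, and its 5 probe sets differed in sign. For 1452494_s_at, the brightest, the high mice ranged from 11.90 to 12.69 with a median of 12.51, and the low mice from 12.47 to 12.89 with a median of 12.76. All 9 high mice were below the low mean, 4 of them below every low mouse, and high C1 was the lowest at 11.90. The difference was -0.27 ± 0.09 (SE), and the 3 high location means (12.54, 12.46 and 12.37) lay below the 3 low ones (12.77, 12.66 and 12.76). For 1427826_a_at the high mice ranged from 9.98 to 11.53 with a median of 10.94 and the low mice from 10.76 to 11.66 with a median of 11.17. The groups overlapped, 8 of 9 high mice were below the low mean, and the difference was -0.34 ± 0.17 (SE). For 1449394_at the high mice ranged from 11.77 to 12.46 and the low mice from 11.92 to 12.38, with a difference of -0.0045 ± 0.093 (SE) whose sign turned in 12 of 34 alternatives. Those included quantile normalizing the arrays again, centring them on bright probe sets, and leaving out any 1 of 7 mice, with 0.054 without high C1. The suffix _s_at marks probe sets whose probes can match more than 1 transcript, so related transcripts may add to 1452494_s_at. The weak probe sets 1427825_at and 1452569_at differed by 0.06 ± 0.14 and -0.15 ± 0.08 (SE).

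Between the high locations, Slco1b2 1427826_a_at was lowest at B, with 10.37 ± 0.42 against 11.20 ± 0.30 at A and 10.87 ± 0.35 at C (SD, n = 3 each). Location B was below A by 0.83, with an SE of 0.23; limma's F test gave an adjusted p of 0.306. At low altitude B was also the lowest, with 10.96 against 11.42 at A and 11.11 at C, at an adjusted p of 0.878. Neither altitude's location means passed the test. The probe sets of Slco1b2 followed each other unevenly: over the 18 mice, the deviations from the altitude means of 1452494_s_at had r = 0.754 with 1449394_at, 0.477 with 1427826_a_at and -0.169 with 1427825_at, given here as a description.

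Slco1a1 varied more between mice than between altitudes. For 1420379_at the high mice ranged from 9.13 to 11.91 with a median of 11.41 and the low mice from 10.15 to 11.94 with a median of 11.55. The medians were close, and the lower high mean of 10.88 ± 0.96 against 11.40 ± 0.56 (SD, n = 9 each) came with 2 high mice below all low mice, A4 at 9.13 and C1 at 9.64. The difference was -0.52 ± 0.33 (SE). The second probe set, 1449844_at, gave -0.57 ± 0.38 (SE), with ranges of 8.01 to 11.06 at high and 8.69 to 11.26 at low altitude. Both probe sets ranked the mice alike, with r = 0.968 for their deviations over 18 mice.

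Slco1a4, with 1 probe set (1420405_at), was the most variable member. The high mice ranged from 6.78 to 11.02 with a median of 9.35 and the low mice from 7.17 to 10.59 with a median of 9.03. The groups overlapped almost completely, with 6 of 9 high mice above the low mean, and the difference was 0.30 ± 0.51 (SE); without the high C mice it was -0.21. High C held the highest mice, with a mean of 10.35 ± 0.93 against 8.76 ± 0.62 at B and 8.85 ± 1.87 at A (SD, n = 3 each). That spread of 1.58 between location means, with an SE of 0.84, was the widest of any member and gave an adjusted p of 0.758 in limma's F test.

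The 6 genes, each by its brightest probe set, were compared with each other within each altitude, as part of 30 combinations of 15 gene pairs and 2 altitudes. Slco1a1 1420379_at and Slco1b2 1452494_s_at varied together. Among the low mice r was 0.921 (exact permutation p = 0.000752, adjusted p = 0.0226) and rho 0.85 (exact permutation p = 0.00607, adjusted p = 0.129). Without low B2 and low A1, the mice lowest for both genes, r was 0.685. Among the high mice r was 0.666 (exact permutation p = 0.0490, adjusted p = 0.206) and rho 0.733 (exact permutation p = 0.0311, adjusted p = 0.187), and r was 0.522 without high A4 and high C1. With location means removed, r was 0.737 over 18 mice and the exact adjusted p within locations 0.0122 over 15 pairs. This was the only pair and altitude of the 30 to pass by Pearson's r, in the low mice; 7 had an unadjusted exact p below 0.05, and 0 passed by Spearman's rho.

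Slco1a1 and Slco1a4 ran in opposite directions without passing the test. Among the high mice r was -0.730 (exact permutation p = 0.0253, adjusted p = 0.193) and rho -0.783 (exact permutation p = 0.0172, adjusted p = 0.129), and r was -0.619 without high A4 and high C1. Among the low mice r was -0.653 (exact permutation p = 0.0548, adjusted p = 0.206) and rho -0.60 (exact permutation p = 0.0968, adjusted p = 0.405). There the relation rested on low B2 and low A1, without which r was 0.017. Within locations r was -0.777, with an exact adjusted p of 0.0818. The mice lowest for Slco1a1 in each group, high A4, high C1 and low B2, had Slco1a4 levels of 10.41, 11.02 and 10.59, and high A1, with the lowest Slco1a4 level of 6.78, had a Slco1a1 level of 11.91.

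**Figure D3:**
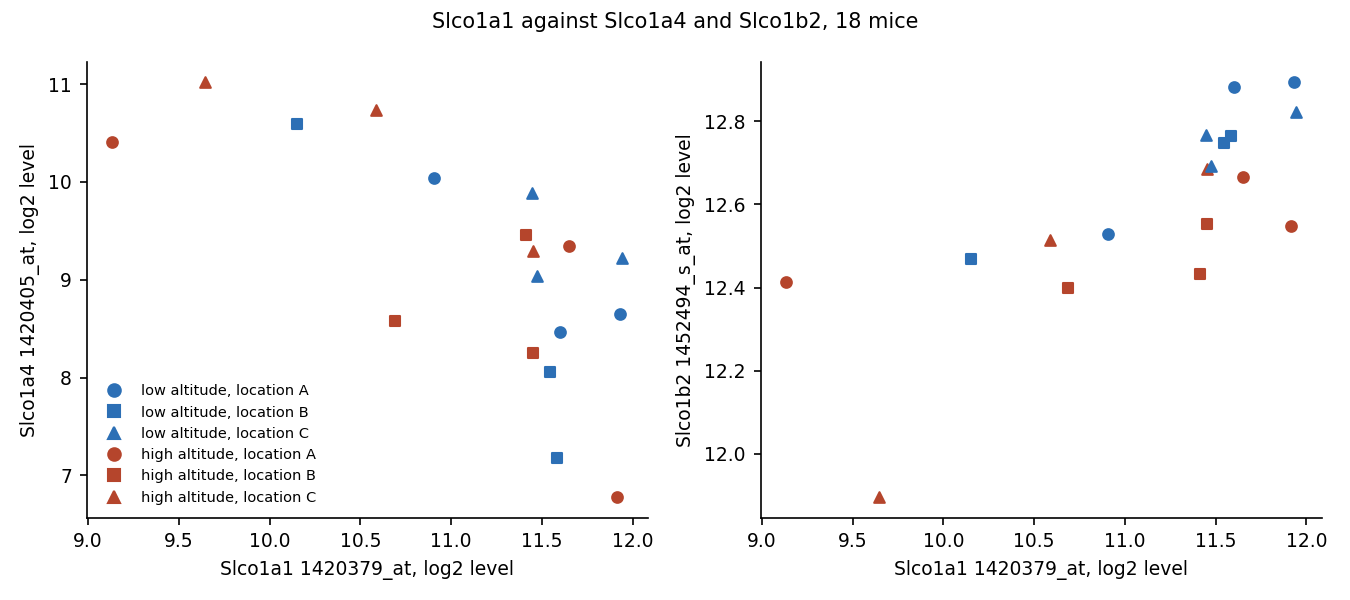
Log2 level of Slco1a1 1420379_at (horizontal axis) against Slco1a4 1420405_at (left panel) and Slco1b2 1452494_s_at (right panel) in 18 livers; colour gives altitude, shape gives location, and each point is a mouse. Slco1a4 slopes downwards against Slco1a1 (r = -0.730 at high, -0.653 at low altitude) and Slco1b2 upwards (r = 0.666 at high, 0.921 at low altitude).

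Slco2a1 itself did not pass with any of the other genes. The largest of its correlations was with Slco1a4 in the high mice, at r = 0.669 (exact permutation p = 0.0476, adjusted p = 0.206) and rho 0.817 (exact permutation p = 0.0108, adjusted p = 0.129); among the low mice r was -0.093 (exact permutation p = 0.810).

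The broadly expressed members differed little. Slco2b1, an OATP of liver and gut that also carries steroid sulphates, had ranges of 9.60 to 10.22 with a median of 9.82 at high and 9.16 to 10.10 with a median of 9.88 at low altitude for 1433933_s_at. The median was slightly lower and the mean slightly higher at high altitude; the difference was 0.15 ± 0.12 (SE), and low B2 was the lowest mouse at 9.16. Probe set 1454777_at gave 0.08 ± 0.10 (SE) and varied with it (r = 0.895 for deviations over 18 mice). The third, 1458171_at, gave -0.13 ± 0.06 (SE), with 8 of 9 high mice below the low mean and 5 of 9 below every low mouse. Slco3a1, a carrier of prostaglandins and thyroid hormone, ranged for 1448918_at from 5.88 to 6.70 with a median of 6.17 at high and from 5.77 to 6.26 with a median of 5.94 at low altitude. The groups overlapped, 7 of 9 high mice were above the low mean, and high A1 was highest at 6.70. The difference was 0.20 ± 0.10 (SE). The dim probe sets 1434537_at and 1418030_at gave 0.07 ± 0.09 and 0.14 ± 0.12 (SE).

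Over all 18 member probe sets, 2 passed the altitude test, both of Slco2a1 (1420913_at and 1450032_at) and both higher at high altitude, and 16 did not. This count is part of how the genes were chosen; of all 45037 probe sets 134 passed (0.298%), 77 of them higher (0.171%) and 57 lower (0.127%) at high altitude. The median difference of the 18 was 0.08 and that of all probe sets -0.00043. The 14 probe sets of the other 5 genes divided into 7 positive and 7 negative differences from -0.57 to 0.30, with a median of 0.03.

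**Figure D4:**
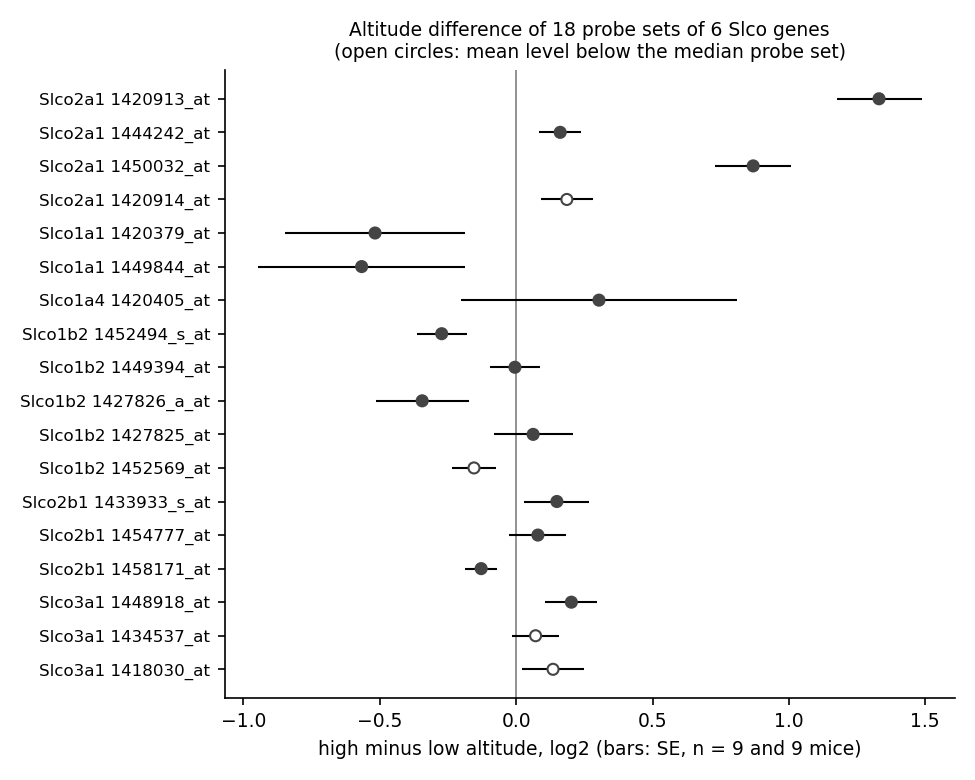
Difference between the altitude means (high minus low, log2) of the 18 member probe sets; points are differences, bars are 1 standard error to each side (9 mice per altitude), and open circles mark probe sets below the median level. Slco2a1 1420913_at (1.33) and 1450032_at (0.87) stand to the right of the other 16, which lie between -0.57 and 0.30.

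Between the locations of 1 altitude no member probe set passed the test. Among the 3 high locations limma's F test called 0 of 18 member probe sets, against 75 of all probe sets (0.167%); 2 of the 18, Slco2a1 1450032_at and Slco1b2 1427826_a_at, had an unadjusted p below 0.05, as had 3779 of all probe sets (8.39%). Among the 3 low locations it called 0 of 18, against 28 of all (0.0622%), with 0 of the 18 below 0.05 unadjusted, against 2817 of all (6.25%), and a smallest adjusted p of 0.875. Location means of 1 probe set spanned from 0.10 for Slco2b1 1433933_s_at to 1.58 for Slco1a4 at high altitude, and from 0.11 to 0.77 at low altitude.

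By the similarity of their deviations from the altitude means over 18 mice, 3 from each location, the genes most like each member were listed. The candidates were 12221 genes whose brightest probe set was at or above the median probe set. For Slco2a1 1420913_at they were Gpa33 (r = 0.846), Hira, Rcan2, Gm17508 and 4930571K23Rik; for 1450032_at the first was Nr0b2 (0.837), for 1444242_at Tent2 (0.885) and for 1420914_at the interferon-induced gene Rsad2 (0.794). Each Slco2a1 probe set thus had a different first gene. Slco1a1 was most like Marchf8 (0.858), Mug1, Psmd1 and the complement genes C8a and C8b. Slco1a4 was most like Tnrc6a (0.829), Acot3, Abcb11, the bile salt export pump, 4930555G07Rik and Cox17. Slco1b2 was most like Aldh1a1 (0.901), Mup3, Sult2a8, Hsd3b2 and Stbd1. Slco2b1 was most like Fzd7 (0.788), Rai14, Fermt2, Cdh2 and Krba1, and Slco3a1 most like Plac8 (0.854), Psme1, Evl, Ipo9 and Tgfb1. These values are the highest of 12221 correlations each and are a description with no test.

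Genes that make, degrade and sense the prostanoids carried by Slco2a1 were counted from a list of 25, of which 22 were measured here, 1 probe set per gene. The list was drawn up with earlier results of these data known, so its counts are not independent of them. A fit on 1 probe set per gene called 66 of 18193 genes for altitude. In the altitude test 2 were higher at high altitude, against 0.171% of all probe sets, and 0 lower, against 0.127%. The median difference of the list was 0.07. Both genes that passed, Ptger2 and Ptger4, encode receptors for prostaglandin E2. The other receptor genes for it, Ptger1 and Ptger3, differed by 0.07 and -0.04 and did not pass (limma adjusted p = 0.810 and 0.986). An unadjusted p below 0.05 was found for 6 of the 22, against 4533 of all probe sets (10.1%). Ptger2 (1449310_at) ranged from 4.57 to 5.26 with a median of 4.95 at high and from 4.13 to 4.52 with a median of 4.32 at low altitude. All 9 high mice were above all 9 low mice, although the probe set is dim, and the difference was 0.55 ± 0.09 (SE; limma adjusted p = 0.00787). Its call was lost in 2 of 34 alternative settings, with 1 mean per location and without low location C (adjusted p of 0.00176 to 0.149 over the 34). Ptger4 (1424208_at) ranged from 5.42 to 7.03 with a median of 6.00 at high and from 4.61 to 5.76 with a median of 5.13 at low altitude. Of the 9 high mice 6 were above all low mice, and the difference was 0.90 ± 0.19 (SE; limma adjusted p = 0.0451). Its call was lost in 25 of 35 alternative settings, and its other probe set, 1421073_a_at, near the floor, differed by 0.10 ± 0.07 (SE; limma adjusted p = 0.691). Hpgd, named for its role after its values were known, had a lower mean of 10.98 ± 0.29 against 11.23 ± 0.23 (SD, n = 9 each) and did not pass (difference -0.25 ± 0.12, SE; limma adjusted p = 0.497).

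**Figure D5:**
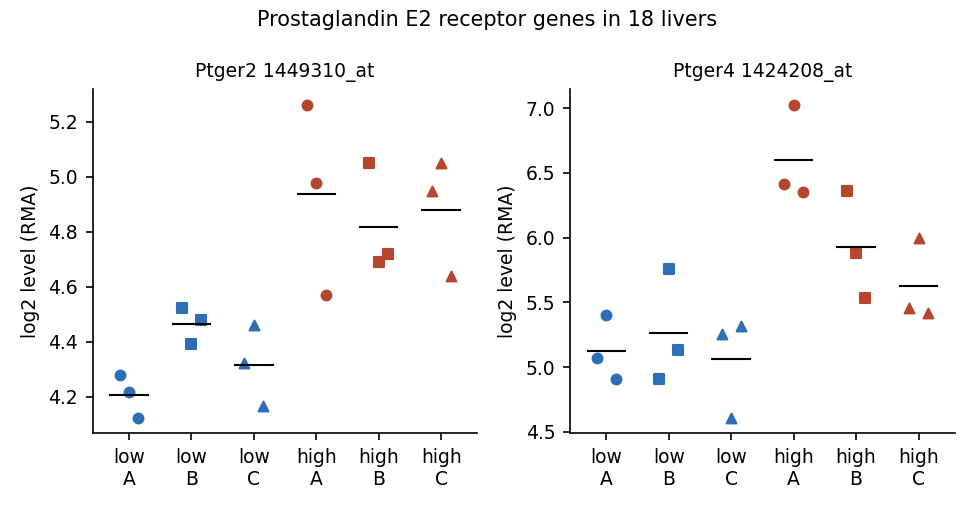
Log2 level (RMA) of the prostaglandin E2 receptor genes Ptger2 (1449310_at, left) and Ptger4 (1424208_at, right) in 18 livers by trapping location; points are mice and lines are means of 3 mice. All high mice lie above all low mice for Ptger2, and 6 of 9 do for Ptger4, whose highest mice are high A2 (7.03) and high A1 (6.41).

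The other transporters and regulators had no member past limma's altitude test, which 0.298% of all probe sets passed, with 10.1% below 0.05 unadjusted. Of the other Slco genes 0 of 9 measured passed (1 with an unadjusted p below 0.05); Slco1c1, which borders Slco1b2, had the smallest p, with a difference of -0.33 ± 0.10 (SE; adjusted p = 0.164). Of 21 other hepatic anion and bile acid transporters 0 passed (5 unadjusted), with Abcc6 first at 0.32 ± 0.08 (SE; adjusted p = 0.113). Of 18 transcription factors known for liver transporter genes 0 passed (3 unadjusted), with Foxa1 first at -0.56 ± 0.15 (SE; adjusted p = 0.110). Among genes known to be higher in male mouse liver 0 of 11 passed (4 unadjusted), with a median difference of -0.36, and among female ones 0 of 13 (0 unadjusted), with a median of 0.13.

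Markers of the liver's cell types were read beside the Slco2a1 difference, and their counts beside the shares of all probe sets, 0.298% past the altitude test and 10.1% below 0.05 unadjusted. Hepatocyte markers had a mean level in a mouse of 13.62 to 13.82 at high and 13.53 to 13.97 at low altitude, with 0 of 8 measured past limma's altitude test (1 with an unadjusted p below 0.05). Of 17 endothelial markers 0 passed (1 unadjusted, Vwf, at 0.83 ± 0.19, SE, limma adjusted p = 0.0708). Vwf did not stand for the list: 10 markers had a higher mean at high altitude and 7 a lower one, Lyve1 lowest at -0.73. The median over the 17 was 0.07. The mean level of the endothelial list in a mouse was 7.18 to 7.75 at high and 7.03 to 7.57 at low altitude. Of 12 Kupffer and macrophage markers 0 passed (5 unadjusted), all 12 differences were positive with a median of 0.37, and their mean level was 8.89 to 10.24 at high and 8.60 to 9.75 at low altitude. Of 6 B and plasma cell markers 2 rose (2 unadjusted), Jchain by 2.34 and Ighm by 2.05 (limma adjusted p = 0.00361 and 0.00787), and the mean level of the list was 5.93 to 6.90 at high and 5.50 to 5.91 at low altitude. Of 7 T and NK cell markers 0 passed for altitude (5 unadjusted), with 6 positive and 1 negative differences and a median of 0.57. Their mean level was 5.75 to 7.003 at high and 5.47 to 6.14 at low altitude. Among the 3 high locations limma's F test called 2 of the 7, against 0.167% of all probe sets. These were Ccl5 and Nkg7 (limma F test, adjusted p = 0.00971 and 0.0498). None of 5 cholangiocyte, 8 stellate, 5 neutrophil and 3 erythroid markers passed limma's altitude test (0 unadjusted in each list). The part of these cell types in the Slco2a1 and Ptger differences was not tested.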

How the data were processed

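The authors deposited log2 values of 45101 probe sets for 18 arrays, made with RMA in the R package affy, per the submitters' processing notes, which name no versions. RMA subtracts background, quantile normalizes and summarises probes, which compresses dim probe sets. Groups came from the sample titles; a C57BL/6J strain label, at odds with wild trapping, was not used. Symbols came from the platform annotation (34945 probe sets with 1 symbol, 932 with several, 9160 not listed, 64 controls left out), and all 6 members matched RefSeq by Entrez number.

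limma 3.58.1 (R 4.3.3) fitted altitude with location as a random block (correlation -0.0019), eBayes with trend, and Benjamini-Hochberg adjustment over 45037 probe sets at 0.05. Locations were compared by moderated F tests on 6 location means. Correlations within an altitude were tested over all 362880 pairings, and within locations over 46656 orders. In lists a gene stood by its brightest probe set. Alternatives covered normalization, centring, filters, weights, RNA integrity, blocks, thresholds, and leaving out each mouse or location. Whether mice of a location were independent is not stated, so p-values measure the spread between these mice. Named genes were all member probe sets, list genes past a test (otherwise the smallest p) and the 5 genes most like each member. The members and lists were chosen with earlier results of these data known. Scan dates and sequences were not analysed here. Figures used matplotlib 3.10.9.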

Additional observations from a re-analysis of the deposited data

Results flagged for a closer look

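In 4 of 36 groups of 9 mice (18 probe sets at each altitude), 1 mouse lay far from the others by Dixon's criterion, which chance meets in about 1 in 20 groups. For Slco2a1 1420914_at, high C3 had 5.47, against 4.97 in the next high mouse. The same mouse was the highest for each of the other Slco2a1 probe sets. For Slco1a1 1449844_at, low B2 had 8.69, against 10.28 in the next low mouse. For Slco1b2 1452569_at, low B2 had 5.15, against 4.74 in the next. For Slco1b2 1452494_s_at, high C1 had 11.90, against 12.40 in the next high mouse.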

How the results depend on the processing

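Slco2a1 1420913_at kept its call of higher level at high altitude in 34 of 35 alternatives, with differences of 1.24 to 1.44, and lost it with 1 mean per location. The call of 1450032_at was kept in 32 of 34 and lost with 1 mean per location and without low location C. Slco2a1 was chosen from values of this contrast and the alternatives reuse the same mice. The kept calls of its probe sets are therefore a description and not separate support. Against 1.33 for 1420913_at, the Slco2a1 difference was 0.87 by 1450032_at, 0.16 by 1444242_at, 0.19 by 1420914_at and 0.64 by the mean of its probe sets. Ptger2 kept its call in 32 of 34, and Ptger4 in 10 of 35 (adjusted p of 0.0219 to 0.409). No member probe set passed a location test under the alternatives run; the smallest adjusted p was 0.0503 for Slco2a1 1450032_at with array weights.

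Of 45037 probe sets 134 passed for altitude. The count was 250 with arrays centred on bright probe sets, 251 with array weights, 205 with an RNA integrity covariate, 66 with 1 probe set per gene and 0 with 1 mean per location. It was 82 without high location A, 227 without high B, 78 without low B and 39 without low C. At adjusted p below 0.01 it was 26 and below 0.1 it was 321. Leaving out 1 mouse gave 49 (low B3) to 163 (high B3), with 83 without low A2 and 79 without low C2. With the mouse number as a replicate block 64 passed. The numbers do not pair the samples: same-numbered mice of other locations had a mean r of -0.013 against 0.0057 for other pairs, and high A4 has no partner.

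For the high locations the count of 75 became 43 with arrays shifted to one median, 314 with weights, 23 with the RNA covariate, 26 at 0.01 and 188 at 0.1. Leaving out 1 mouse gave 31 (high B3) to 113 (low B2); it was 40, 46 and 48 without high A1, C1 and C3, and 47, 44 and 43 without low A1, A2 and A3. For the low locations the count of 28 became 13 with 1 probe set per gene, 107 with weights and 11 at 0.01. Leaving out 1 mouse gave 13 (low A3) to 62 (low B2), with 14, 17 and 43 without low A2, B3 and C2. The causes were not tested. Dim probe sets and 3 mice per location limit what can be separated.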

Other observations

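The lists of genes known to be higher in male or in female mouse liver were also read against the members, a measure added after seeing the data and given as a description without a test. It is Pearson's r over the 18 mice, all male and 3 from each location, of the deviations from the altitude means, with 1 probe set per gene. Slco1a1 was positively correlated with 11 of 11 male genes, with a median r of 0.644 against -0.026 for all genes, from 0.078 for Cyp2u1 to 0.795 for the male steroid hydroxylase gene Cyp2d9. It was negatively correlated with 12 of 13 female genes, with a median of -0.585 and the lowest value, -0.861, for Cyp2b13. The exception was Cux2, a female-specific repressor of male genes, at 0.376.

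Slco1a4 showed the opposite signs. It was negative with 11 of 11 male genes (median -0.580, lowest -0.751 for Hsd3b5) and positive with 12 of 13 female genes (median 0.599, highest 0.815 for Acot3), again with Cux2 as the exception at -0.490. Slco1b2 had the signs of Slco1a1, positive with 10 of 11 male genes (median 0.520) and negative with 12 of 13 female genes (median -0.490). Slco3a1 divided into 4 positive and 7 negative for the male and 7 positive and 6 negative for the female list. Slco2a1 was negative with 8 of 11 male genes (median -0.231) and positive with 10 of 13 female genes (median 0.362), and Slco2b1 was positive with 10 of 11 (median 0.282) and negative with 10 of 13 (median -0.173). Genes of a list vary together, so these counts are not independent observations.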
